A study of Mus musculus with 5 samples.

Results

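Conventional dendritic cells were taken as barcodes with a minimum of 500 unique molecular identifiers (UMIs, each 1 counted transcript molecule) and 200 genes, and a mitochondrial share no higher than 20%, that met 3 further limits. The 4 class II genes Cd74, H2-Aa, H2-Ab1 and H2-Eb1 had to make up at least 0.5% of the UMIs, at least 2 of the 7 genes Flt3, Zbtb46, Xcr1, Clec9a, Cd209a, Ccr7 and Fscn1 had to be detected, and Cd3e, Cd79a and Tmem119 had to be at 0 UMIs. The cells were thus chosen by measured UMIs of these 14 genes, and 316 of 58411 barcodes that passed the quality limits were found. The cells came from dissociated cortex of C57BL/6J mice, with 1 library of sham animals and 1 library each from the injury site on days 1, 3, 7 and 14 of traumatic brain injury (TBI). The number, age and sex of the mice in each library are not given in the sources used here. The series title names the m6A eraser ALKBH5 and the cytokine signalling inhibitor SOCS3, in microglia and macrophages. With 1 library per group there is no test between groups: every ratio below compares libraries or groups of cells within a library, and every interval is a 95% interval for counting error only.

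Conventional dendritic cells take up antigen in tissues, mature, move along chemokine gradients to lymph nodes and present peptides on MHC molecules to T cells. The textbook classes are Xcr1- and Clec9a-bearing cells, which depend on the transcription factors Irf8 and Batf3 and present antigen from dead cells on class I molecules, and Irf4- and Klf4-dependent cells, often Cd209a-positive, which favour class II presentation to CD4 T cells. Either class can mature into cells with Ccr7, the receptor that guides them to lymph nodes, and Fscn1, the actin-bundling protein of their long processes. In the healthy brain such cells are rare and sit mainly in the meninges and choroid plexus, and they enter the tissue after injury or infection.

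The libraries held 9895 to 14159 barcodes and 11279455 to 129161094 UMIs, and the median per kept barcode was 774 UMIs in the sham library, 1757 at day 1, 3258 at day 3, 7279 at day 7 and 8739.5 at day 14. Depth and day therefore moved together. The day 7 library stood apart, with 1795 barcodes (12.7%) over the mitochondrial limit. Of the 1781 of these with enough UMIs and genes, 0 met the other limits, so that at most 0.168% could. Each pair of libraries shared 27 to 59 barcode sequences.

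The label was checked at day 14 against cells that should lack dendritic cell genes, 1735 Cd3e-positive barcodes with class II UMIs under the limit, called T cells below. Several dendritic cell genes outside the limits were higher in the dendritic cells than in the T cells, but the summed markers of the Cd209a type were not. Itgax, which encodes CD11c, had 121 CPM (UMIs of the gene per 1000000 UMIs of the group) in the 246 dendritic cells and 14.5 CPM in the T cells. Batf3 had 184 and 6.24 CPM, and Ciita, the master regulator of class II genes, had 263 and 5.29 CPM. Class II UMIs set both groups apart, so the level of Ciita is a description and no check of the label. Of the genes of mature dendritic cells, Il4i1 had 295 and 6.71 CPM and Ccl22 had 133 and 8.13 CPM. The markers of each type outside the limits were also summed. Those of the Xcr1/Clec9a type had 1301 CPM in the dendritic cells and 145 CPM in the T cells. Those of the Ccr7/Fscn1 type had 2381 and 299 CPM, whereas those of the Cd209a type had 644 and 994 CPM. In the T cells of day 7 the Cd209a-type sum was 871 CPM with Clec10a, Mgl2 and Clec4a4 at 0 UMIs. T cells can thus reach such a sum through its other markers alone, so it is a weak check of this type. A second reference was 490 class II-positive barcodes with Tmem119, a microglial gene. They held less Batf3 (28.6 CPM) and Il4i1 (30.1 CPM) but as much Itgax (136 CPM). A further 167 barcodes met the other limits but had 1 of the 7 genes. There the sums of the Xcr1/Clec9a, Ccr7/Fscn1 and Cd209a types were 681, 420 and 814 CPM.

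RNA of other cells was also present. The complement gene C1qa had 579 CPM in the dendritic cells, 575 CPM in the T cells and 10442 CPM in the Tmem119-positive barcodes. The immunoglobulin gene Igkc had 320 CPM in the dendritic cells and 441 CPM in the T cells. Neither gene was thus far higher in the dendritic cells than in the T cells, which are not known for making them. C1qa was also among the leading genes of 1 cluster of 54 dendritic cells, described below, and the source of these UMIs was not tested. The T cell genes Trbc2 (7.85 CPM against 1529 CPM in T cells) and Nkg7 (3.36 against 849 CPM) were low in the dendritic cells, and the B cell genes Pax5, Fcmr and Ebf1 were at 0 UMIs. All 17 monocyte and macrophage markers were detected, with a summed level of 9481 CPM in the dendritic cells, 11220 CPM in the T cells and 85111 CPM in the Tmem119-positive barcodes; for the 12 microglial markers outside the limits, of which P2ry12 had 11.2 CPM, the sums were 790, 648 and 7576 CPM.

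**Figure D1:**
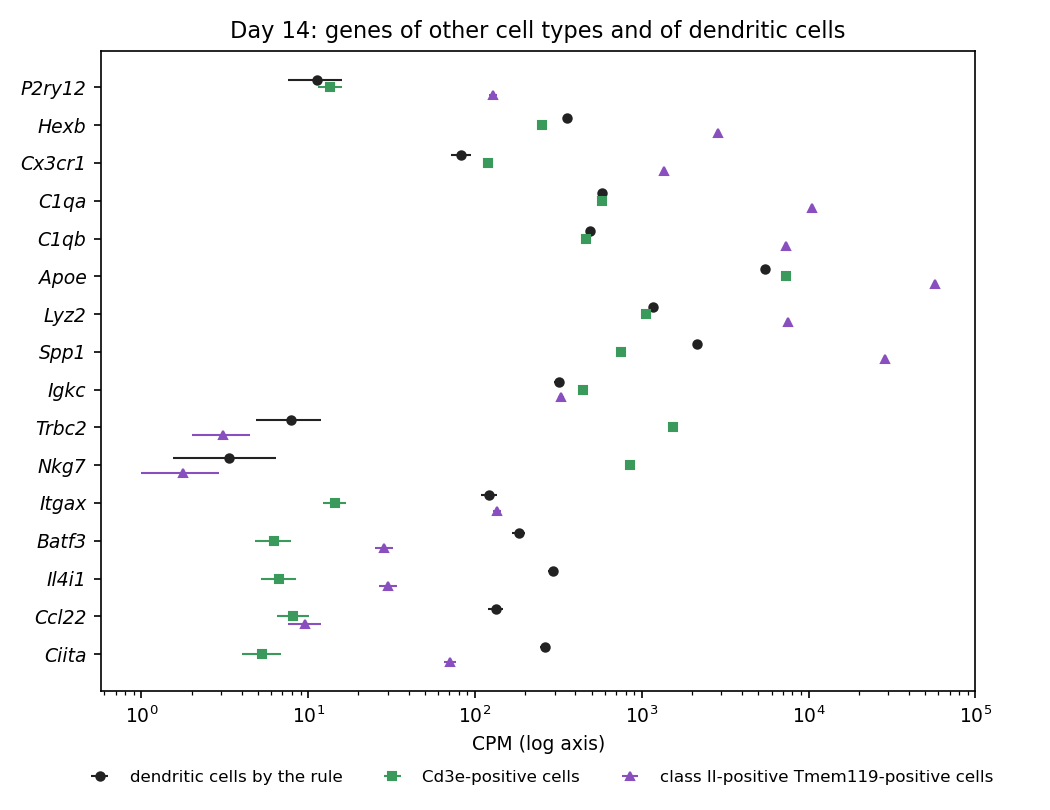
CPM on a log axis of genes of dendritic cells and of other cells at day 14, in the 246 dendritic cells, the 1735 Cd3e-positive T cells and the 490 class II-positive Tmem119-positive barcodes; bars are 95% Poisson intervals of the summed UMIs. C1qa and Igkc lie at a similar level in dendritic cells and T cells, whereas Itgax, Batf3 and Ciita are higher in dendritic cells than in T cells. Itgax is not higher in dendritic cells than in the Tmem119-positive barcodes, and Ciita is no check of the label.

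Dendritic cells made up a larger share of barcodes in each later library from day 1 to day 14. There were 0 among 11525 barcodes in the sham library (a count of 0 allows at most 0.0260%) and 2 of 12705 at day 1 (0.0157%, exact binomial interval 0.00191 to 0.0569%). The counts were 14 of 9877 at day 3 (0.142%, 0.0775 to 0.238%), 54 of 12358 at day 7 (0.437%, 0.328 to 0.570%) and 246 of 11946 at day 14 (2.06%, 1.81 to 2.33%). At full depth the intervals of days 1 and 3 did not overlap, nor did those of days 3 and 7 or of days 7 and 14. Of the 14 cells at day 3, however, 12 lay in clusters led by markers of other cells, described below. Without these the share at day 3 was 0.0202%, inside the interval of day 1.

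A deeper cell can show more of the 7 genes, so the limits were also applied after every barcode was thinned to 1000 UMIs. The order was the same, but only the interval of day 14 (0.853 to 1.23%) stood apart from its neighbour. The intervals of day 1 (0.00553 to 0.0784%) and day 3 (0.0241 to 0.143%) overlapped, as did those of day 3 and day 7 (0.107 to 0.271%). There were 0 cells in the sham library, where 8058 barcodes were too shallow to enter and the limit was 0.0865%, 3 cells at day 1 (0.0268%), 6 at day 3 (0.0657%), 20 at day 7 (0.176%) and 120 at day 14 (1.03%). The share at day 14 was lower after thinning than before, and it was still the highest of the 5. All class II-positive barcodes together made up 0.231, 0.259, 2.98, 2.37 and 13.2% of the thinned barcodes from sham to day 14. The next shares are at full depth, without thinning. Among class II-positive barcodes with no Cd3e, Cd79a or Tmem119, dendritic cells were 2 of 27 at day 1 (7.41%), 14 of 238 at day 3 (5.88%), 54 of 199 at day 7 (27.1%) and 246 of 764 at day 14 (32.2%). At full depth the step up between days 3 and 7 within this population was thus larger than that between days 7 and 14. The median depth of kept barcodes was 3258 UMIs at day 3 and 7279 at day 7, and its part in this step was not tested.

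The class II limit ran through a continuous range of cells. At day 14 the lowest class II share of a dendritic cell was 0.516% and the highest of a barcode just outside was 0.499%; at day 7 these were 0.5005 and 0.483%. Cells under 1% class II UMIs numbered 3 at day 3, 8 at day 7 and 19 at day 14. Another 167 barcodes at day 14 had exactly 1 of the 7 genes and 351 had 0, and Tmem119 alone or with other genes excluded 560 class II-positive barcodes there.

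Flt3, the receptor for the growth factor that sustains dendritic cells, was the most common gene of the 7 at day 14: a UMI was present in 67.5% of the cells (99.8 CPM), against 0.692% of the T cells (1.42 CPM), with median depths of 9875.5 and 4538 UMIs. Zbtb46, a transcription factor of conventional dendritic cells, had 44.1 CPM against 2.27 CPM. The most frequent combinations were Flt3 with Cd209a in 32 cells, Flt3 with Ccr7 and Fscn1 in 31, and Ccr7 with Fscn1 in 25. Of the 246 cells, 124 had 2 of the 7 genes, 86 had 3, 33 had 4 and 3 had 5. These genes chose the cells, so their levels are a description.

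The cells were split by which of Xcr1 or Clec9a, Cd209a, and Ccr7 or Fscn1 was detected. At day 14, 113 of 246 cells had Ccr7 or Fscn1 only (45.9%, interval 39.6 to 52.4%), 56 had Cd209a only (22.8%, 17.7 to 28.5%) and 37 had Xcr1 or Clec9a only (15.04%, 10.8 to 20.1%). A further 28 cells had genes of several of these groups and 12 had none, being Flt3 and Zbtb46 cells. At day 7 the counts were 23 Ccr7/Fscn1 cells (42.6%), 5 Cd209a cells (9.26%) and 14 Xcr1/Clec9a cells (25.9%) of 54. Ccr7/Fscn1 cells were thus the most numerous group on both days under these limits, and the intervals of each group's share on the 2 days overlapped. Ccr7 with Fscn1 met the limit of 2 genes alone, as in 9 of the 23 cells at day 7. Without Fscn1 among the genes, Ccr7/Fscn1 cells fell to 19.4% at day 7. The 14 Xcr1/Clec9a cells, which have no Fscn1, all remained and were then the larger group.

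At day 3, 11 of 14 cells fell to Ccr7/Fscn1, and at day 1 there was 1 cell each with Cd209a and with Ccr7 or Fscn1. Where a cell at day 14 had genes of more than 1 group, 7 joined Xcr1/Clec9a with Cd209a, 10 joined Xcr1/Clec9a with Ccr7/Fscn1 and 11 joined Cd209a with Ccr7/Fscn1. Flt3 and Zbtb46 belong to the 7 genes of the limits, and a cell with Cd209a only had to carry one of them, so their levels across the split are a description: Flt3 had 101, 95.2 and 106 CPM and Zbtb46 had 34.3, 41.4 and 43.8 CPM in Xcr1/Clec9a, Cd209a and Ccr7/Fscn1 cells. The median class II share was 5.33, 6.79 and 2.93%, and the median depth 11413, 11600.5 and 8054 UMIs. Scrublet called 12 of the 246 cells doublets (4.88%), among them 1, 2 and 7 of the 3 groups.

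**Figure D2:**
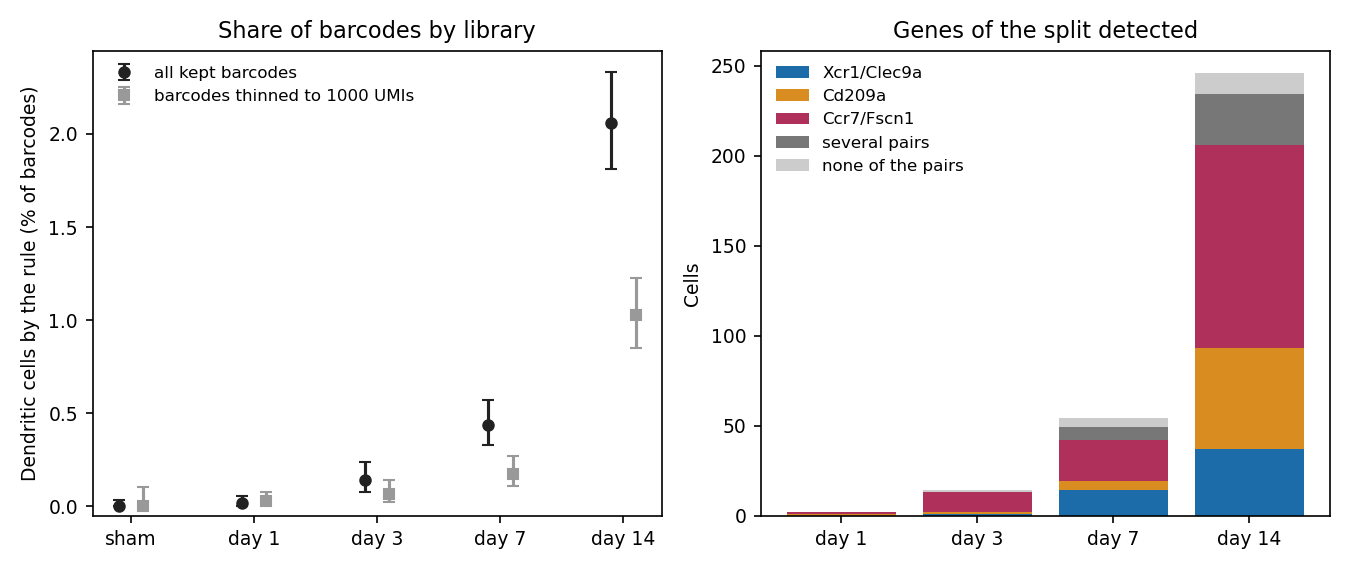
Left, dendritic cells as a percentage of barcodes in each library (linear axis), over all kept barcodes and after thinning to 1000 UMIs, with exact 95% binomial intervals; right, the number of cells in each group of the split by day. The share is highest at day 14 (2.06%, 1.03% after thinning), where Ccr7/Fscn1 cells (113) outnumber Cd209a (56) and Xcr1/Clec9a cells (37).

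Clustering of the 316 cells alone, without the genes of the limits, gave 12 clusters. A cluster of 30 cells, of which 27 had Xcr1 or Clec9a only, was led by Rab7b, Naaa and Ppt1 and is called Xcr1/Clec9a-like. A pair of clusters, both entirely from day 14, is called Ccr7/Fscn1-like: 36 cells led by Eno3, H2-Eb2 and Fxyd2, with Anxa3, Il4i1 and Apol7c, and 41 cells with Serpinb6b, Ramp3 and Tnfrsf4 among their leading genes. These differed in class II share, with medians of 4.92 and 1.78%. A cluster of 35 cells with Epcam, Cd33 and Siglece, 23 of them Cd209a cells, and one of 17 with Ltb, Ifit3b and Rsad2, 14 of them Ccr7/Fscn1 cells, had too few markers for a name.

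The other clusters carried genes of other cells or signs of RNA quality. In all, 114 cells (36.1%) lay in clusters in which another cell type had the most markers of any listed type, called clusters led by other cells below: 74 with monocyte and macrophage markers, 25 with astrocyte, 8 with oligodendrocyte and 7 with plasmacytoid dendritic cell markers. The number depends on the clustering: at a Leiden resolution of 0.5 it was 48 cells. There the astrocyte cluster was part of a cluster of 101 cells with Ccr7/Fscn1 markers, and 46 Cd209a cells lay in a cluster of 94 that held Cd209a, Clec10a, Mgl2 and Ltb. The larger monocyte and macrophage cluster (54 cells) was led by Spp1, Pf4 and Lyz2 but also carried Cd209a, Clec10a, Mgl2, Klf4 and Sirpa. The smaller one (20 cells) held 4 monocyte and macrophage markers, but its leading genes were mostly interferon-induced, such as Slfn1, Cxcl9, Isg20 and Ifit3, and it also held Irf4, Ltb, Itgae and Ifi205. The oligodendrocyte cluster had 7 called doublets among its 8 cells and a median of 21939 UMIs. At day 3 these clusters took 12 of 14 cells (85.7%), 9 of them in the astrocyte cluster, so gene levels of the day 3 cells are not given below. At day 7 they took 16 of 54 (29.6%) and at day 14 85 of 246 (34.6%).

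At day 14 the groups differed in this respect: 33 of 56 Cd209a cells (58.9%, 31 of them in monocyte and macrophage clusters), 24 of 113 Ccr7/Fscn1 cells (21.2%) and 9 of 37 Xcr1/Clec9a cells (24.3%). Monocyte and macrophage markers summed to 5675 CPM in the Cd209a cells, 7903 CPM in Xcr1/Clec9a cells, 9897 CPM in Ccr7/Fscn1 cells and 11220 CPM in T cells. Per cell the order was another: the medians were 44.8 UMIs per 10000 in Cd209a, 59.2 in Xcr1/Clec9a and 27.8 in Ccr7/Fscn1 cells, with 1483 in the highest Ccr7/Fscn1 cell. Oligodendrocyte markers summed to 8408 CPM in Ccr7/Fscn1 cells, 1421 in Cd209a, 496 in Xcr1/Clec9a cells and 5587 CPM in T cells. The per-cell medians of these lay close together, at 4.87, 3.69 and 4.6 UMIs per 10000, with 747 in the highest Ccr7/Fscn1 cell. Most day 7 cells, 36 of 54, lay in 2 clusters led by ribosomal RNA-related and mitochondrial genes such as Gm42418, Lars2 and mt-Rnr1. In both, dendritic cell markers were the most numerous of any listed type. The cluster of 24 cells, 14 of them Xcr1/Clec9a cells, held the Xcr1/Clec9a-type markers Clec9a, Irf8, Cadm1, Wdfy4 and others. The cluster of 19 cells, 18 of them Ccr7/Fscn1 cells, held the Ccr7/Fscn1-type markers Fscn1, Il4i1, Cacnb3, Socs2, Relb and others. Results below are therefore also given without the cells in clusters led by other cells.

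**Figure D3:**
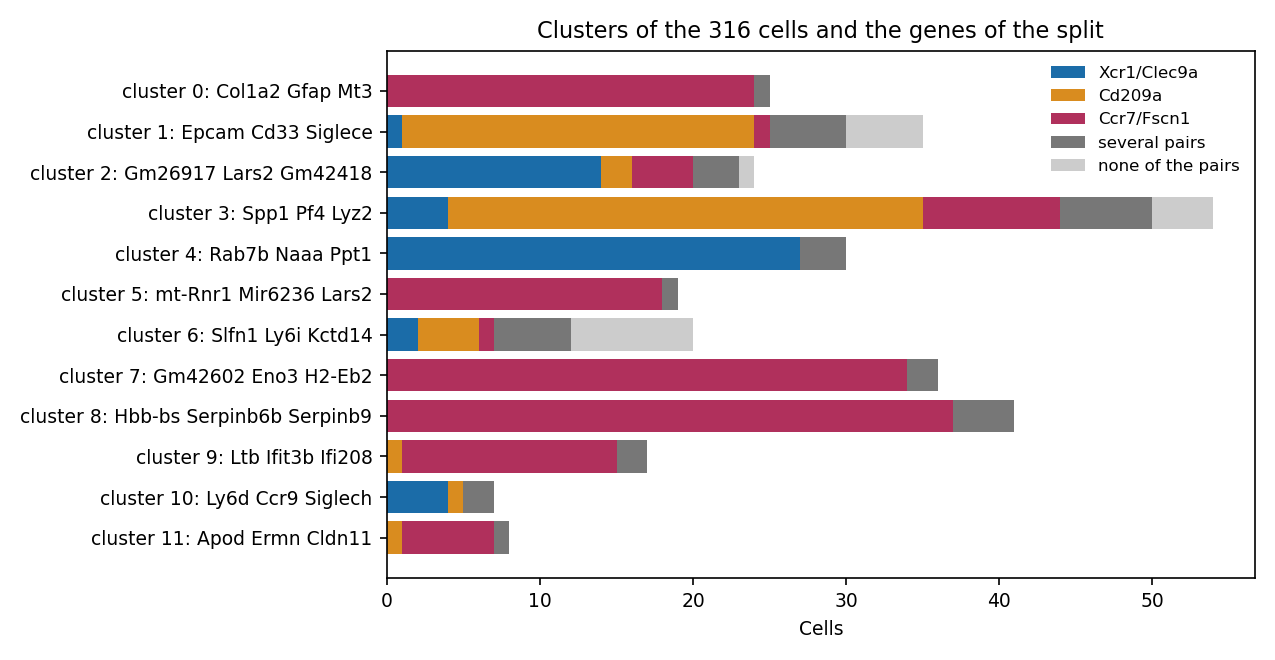
Number of cells in each of the 12 clusters of the 316 cells, coloured by the group of the split and labelled with 3 of its leading genes. The Xcr1/Clec9a-like cluster holds 27 Xcr1/Clec9a cells of 30, and the Ccr7/Fscn1-like clusters of 36 and 41 cells hold 34 and 37 Ccr7/Fscn1 cells.

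Xcr1/Clec9a cells at day 14 carried the other genes of cross-presenting dendritic cells. Of 5115 genes measured (a mean of at least 20 CPM), 339 (6.63%) were at least 2-fold higher than in Cd209a cells and 476 (9.31%) at least 2-fold lower, and the median log2 ratio was -0.04. Of 18 genes listed for this type, 17 were measured, all 17 at least 2-fold higher, with a median log2 ratio of 3.14. Because the split was made on Xcr1 and Clec9a and the list was chosen with earlier results known, this describes the cells and supports no separate finding. With the cells in clusters led by other cells left out (28 against 23 cells), 16 of 17 were higher and the median was 2.84.

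The transcription factor Irf8, required for this lineage, had 1562 CPM in Xcr1/Clec9a cells, 126 in Cd209a cells and 441 in Ccr7/Fscn1 cells, a log2 ratio of 3.63 (3.30 to 3.98) for the first against the second. Its partner Batf3 had 172, 62.9 and 296 CPM (1.45, 0.88 to 2.03). Irf8 was thus highest in Xcr1/Clec9a cells, whereas Batf3 was highest in Ccr7/Fscn1 cells. Wdfy4, a vesicle protein needed for cross-presentation, had 403, 101 and 14.3 CPM. Tlr3, the receptor for double-stranded RNA, had 149, 16.9 and 7.61 CPM (3.14, 2.21 to 4.21), and the adhesion molecule Cadm1 had 77.8, 7.67 and 26.6 CPM. All 3 were highest in Xcr1/Clec9a cells.

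The lysosomal enzymes Naaa, which cleaves fatty acid amides, and Ppt1, a palmitoyl thioesterase, had 748 and 986 CPM in Xcr1/Clec9a cells. Both were lower in Cd209a cells, at 126 and 76.7 CPM, and in Ccr7/Fscn1 cells, at 13.3 and 43.8 CPM. The sorting nexin Snx22 had 199, 6.14 and 1.90 CPM (5.02, 3.61 to 6.93), and the small GTPase Rab7b had 210, 10.7 and 6.66 CPM. Gcsam had 73.2 CPM and 0 UMIs in both other groups, at least 15.9-fold higher than in Cd209a cells against a floor of 3 UMIs. The orphan receptor Gpr141b, with 91.5 CPM, was at least 19.9-fold and the fatty acid receptor Cd36, with 50.3 CPM, at least 10.9-fold higher than in Cd209a cells. Dnase1l3, an enzyme that digests extracellular DNA, had 49 UMIs against 1 (6.19, 3.64 to 11.5). Of the 49 UMIs 36.7% came from 1 cell, and the ratio was 3.31 without the clusters led by other cells.

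Some cell division genes were also higher in Xcr1/Clec9a cells. Of 16 listed, 12 were measured and 5 were at least 2-fold higher than in Cd209a cells (Cdk1, Mcm6, Tyms, Rrm2 and Stmn1), with 0 lower and a median of 0.91. Without the cells in clusters led by other cells it was 9 of 12 and 1.76. A single cell held most UMIs of some immune genes: 98.3% of the 1096 UMIs of the chemokine Ccl5 in Xcr1/Clec9a cells came from 1 cell, and its ratio to Cd209a cells turned from 4.33 to -3.70 without the clusters led by other cells.

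Cd209a cells at day 14 had higher levels of most measured myeloid genes of the second type. Of 20 genes listed, 17 were measured, and 12 were at least 2-fold lower in Xcr1/Clec9a than in Cd209a cells with 0 higher (median -1.79). Without the cells in clusters led by other cells, 12 were lower and 1 higher (median -2.94). The split was made on Cd209a and the list was chosen with earlier results known, so this too is a description. The galactose lectin Clec10a had 612 CPM in Cd209a cells, 29.7 in Xcr1/Clec9a and 46.6 in Ccr7/Fscn1 cells, a log2 ratio of -4.36 (-5.29 to -3.57) for Xcr1/Clec9a cells. Its relative Mgl2 had 253, 9.15 and 25.7 CPM, with UMIs in 28.6% of Cd209a cells. Both lectins were thus lower in each of the other groups.

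The transcription factors Irf4 and Klf4 had 50.6 and 198 CPM in Cd209a cells against 6.86 and 57.2 CPM in Xcr1/Clec9a cells. Irf4 was at a similar level in Ccr7/Fscn1 cells (40 CPM), whereas Klf4 was not (53.3 CPM). Sirpa, which encodes an inhibitory receptor for CD47, had 112, 27.4 and 87.6 CPM, and the integrin gene Itgam, which encodes CD11b, had 130, 18.3 and 16.2 CPM in Cd209a, Xcr1/Clec9a and Ccr7/Fscn1 cells. Ccr2, the receptor of monocyte-attracting chemokines, had 503 CPM in Cd209a cells, 332 in Xcr1/Clec9a and 35.2 in Ccr7/Fscn1 cells (-3.84 for the last). Genes lowest in Xcr1/Clec9a cells against Cd209a cells also included Mcemp1 (11.4 against 264 CPM), the sialic acid receptor Siglece (6.86 against 132 CPM), Cd300a (16 against 264 CPM) and Wfdc17 (75.5 against 1197 CPM).

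Pattern recognition and inflammatory genes stood on both sides. Of 23 receptors for microbes and debris listed, 11 were measured, and 5 were at least 2-fold lower in Xcr1/Clec9a than in Cd209a cells (Tlr2, Clec7a, Clec4n, Clec4a2 and Mrc1) and 1 was higher (Tlr13), with a median of -0.96. Of 23 chemokines and cytokines 12 were measured, with 5 lower in Xcr1/Clec9a cells (Ccl3, Ccl6, Ccl9, Il1b and Tnf), 3 higher (Ccl5, Cxcl9 and Cxcl10) and a median of -0.55. Cxcl10, a chemokine induced by interferon, had 192 CPM in Xcr1/Clec9a and 3.07 CPM in Cd209a cells (5.97, 4.07 to 9.04), and Cxcl9 had 398 and 35.3 CPM (3.50). Of their UMIs in Xcr1/Clec9a cells, 72.6 and 88.5% came from 1 cell each, and the ratios were 5.67 and 3.74 without the clusters led by other cells. The cytokine Il1b had 968 CPM in Cd209a and 311 CPM in Xcr1/Clec9a cells. Lysozyme (Lyz2) had 1222 CPM in Cd209a and 437 in Xcr1/Clec9a cells, but its log2 ratio of -1.48 turned to 0.65 without the clusters led by other cells. Clec4a2, Mrc1 and Tnf turned in the same way.

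**Figure D4:**
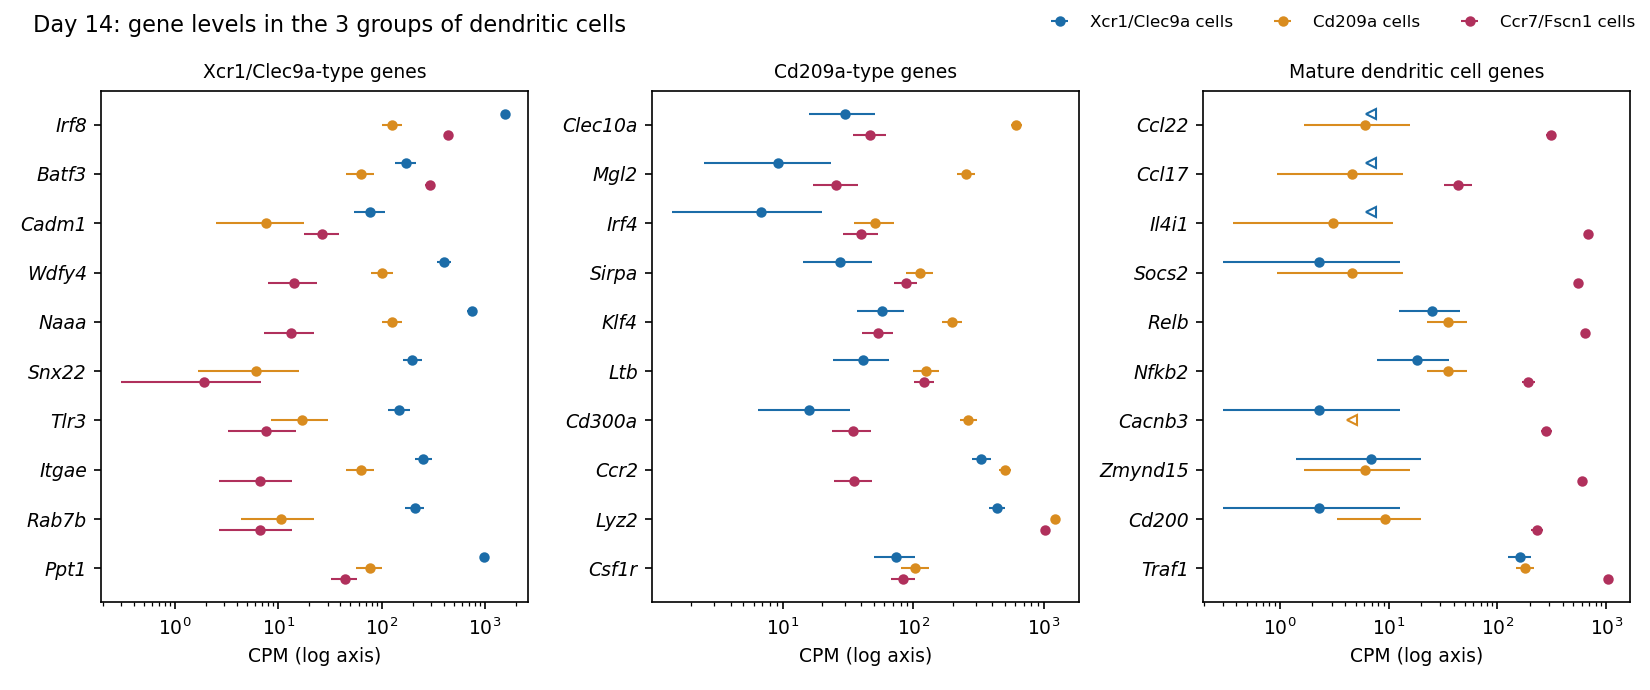
CPM on a log axis at day 14 of 10 genes each of the Xcr1/Clec9a type, the Cd209a type and mature dendritic cells in the 3 groups of the split, with 95% Poisson intervals; open triangles mark 0 UMIs, drawn at the floor of 3 UMIs. Irf8 is highest in Xcr1/Clec9a cells (1562 CPM), Clec10a in Cd209a cells (612 CPM) and Il4i1 in Ccr7/Fscn1 cells (687 CPM).

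Ccr7/Fscn1 cells at day 14 carried most of the known programme of mature dendritic cells. Against Cd209a cells, 948 of 5419 genes measured (17.5%) were at least 2-fold higher and 631 (11.6%) at least 2-fold lower, 29.1% in all, with a median log2 ratio of 0.05. Of 26 listed genes of mature dendritic cells 25 were measured, 24 of them at least 2-fold higher with 0 lower (median 4.09), Nfkb1 being the exception. Without the cells in clusters led by other cells (89 against 23 cells), 23 of 25 were higher and the median was 3.94. Ccr7 and Fscn1 chose the group and are not among these genes. The list was chosen with earlier results known, so this too describes the cells and supports no separate finding.

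Il4i1, an enzyme that degrades amino acids and restrains T cells, had 687 CPM in Ccr7/Fscn1 cells, 3.07 in Cd209a cells and 0 UMIs in Xcr1/Clec9a cells. That is 722 UMIs against 2 for Cd209a cells (7.81, 5.95 to 10.9). Ccl22, the chemokine that attracts Ccr4-bearing T cells, had 311, 6.14 and 0 CPM (5.66, 4.29 to 7.55), and its relative Ccl17 had 43.8, 4.6 and 0 CPM. These 3 genes had 0 UMIs in Xcr1/Clec9a cells. Socs2, an inhibitor of cytokine signalling, had 547, 4.6 and 2.29 CPM (6.89, 5.34 to 9.18). The calcium channel subunit Cacnb3 had 281 CPM against 0 UMIs in Cd209a cells, at least 61.0-fold higher, and Nudt17, with 263 CPM, was at least 57.1-fold higher.

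Zmynd15 (600 against 6.14 CPM), the protease inhibitor Serpinb6b (558 against 3.07 CPM) and the metalloproteinase Mmp25 (246 against 1.53 CPM) were also among the largest ratios to Cd209a cells. Tmem123, also called porimin, had 1425 against 72.1 CPM (4.30) and Marcks, an actin-binding substrate of protein kinase C, 1574 against 210 CPM. The lipid chaperone Fabp5 had 3281 CPM in Ccr7/Fscn1 and 77.8 CPM in Xcr1/Clec9a cells. Apol7c, with 116 CPM and 0 UMIs in both other groups, was at least 25.2-fold higher than in Cd209a cells and was detected in 20.4% of Ccr7/Fscn1 cells. It was thus concentrated in fewer cells than Il4i1, which had a UMI in 85.8%.

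NF-kB genes made up part of this list. Relb, the subunit of the alternative NF-kB pathway, had 636 CPM in Ccr7/Fscn1 cells against 35.3 in Cd209a and 25.2 in Xcr1/Clec9a cells (4.17, 3.57 to 4.84). Its partner Nfkb2 had 192, 35.3 and 18.3 CPM (2.45, 1.82 to 3.14), and Rel had 353, 117 and 61.8 CPM (1.60, 1.24 to 1.97). All 3 were highest in Ccr7/Fscn1 cells. The classical subunit Nfkb1 went the other way against Cd209a cells only, with 102, 163 and 91.5 CPM (-0.68, -1.08 to -0.27). At day 7 Nfkb1 was at least 2-fold higher in Ccr7/Fscn1 than in Xcr1/Clec9a cells. Birc2, an inhibitor of apoptosis, had 451 against 49.1 CPM and Traf1, an adaptor of TNF receptors, 1029 against 180 CPM in Cd209a cells. Tnfaip2, with 53.3 against 18.4 CPM, had a ratio of 1.53 that was 0.65 without the clusters led by other cells, and the survival gene Bcl2l1 had 34.3 against 10.7 CPM (1.67).

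Since these genes were higher together, the 250 bases before their annotated starts were searched on both strands for the NF-kB consensus, in RefSeq sequence of GRCm38.p6. Of the 26 listed genes of mature dendritic cells 19 had a window, and 4 held the motif (21.1%): Bcl2l1, Nfkb2, Rel and Tnfaip2. The motif was in 2916 of 27025 genes with a window (10.8%) and in 1 of 13 Xcr1/Clec9a-type genes, Tlr3. The windows are shown for the 3 genes whose match lies within 100 bases of the start, 5′ to 3′ on the gene's strand, with matches in capitals. They are chr19:46304487-46304736 on the plus strand (matches starting 39, 38 and 11 bases before the start), chr11:23770970-23771219 on the minus strand (92 and 91 bases) and chr12:111442411-111442660 on the plus strand (24 bases). A match is a run of letters and was not tested for binding.
Nfkb2: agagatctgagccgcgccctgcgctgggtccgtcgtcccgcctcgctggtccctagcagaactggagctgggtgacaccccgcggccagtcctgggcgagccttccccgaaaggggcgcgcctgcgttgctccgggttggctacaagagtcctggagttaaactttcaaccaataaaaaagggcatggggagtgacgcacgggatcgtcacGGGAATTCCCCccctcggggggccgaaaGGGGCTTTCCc
Rel: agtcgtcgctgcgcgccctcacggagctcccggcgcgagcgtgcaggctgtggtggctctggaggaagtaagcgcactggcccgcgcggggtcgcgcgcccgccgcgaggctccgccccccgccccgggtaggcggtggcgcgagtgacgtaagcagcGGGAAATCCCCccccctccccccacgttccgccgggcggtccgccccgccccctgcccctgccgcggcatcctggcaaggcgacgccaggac
Tnfaip2: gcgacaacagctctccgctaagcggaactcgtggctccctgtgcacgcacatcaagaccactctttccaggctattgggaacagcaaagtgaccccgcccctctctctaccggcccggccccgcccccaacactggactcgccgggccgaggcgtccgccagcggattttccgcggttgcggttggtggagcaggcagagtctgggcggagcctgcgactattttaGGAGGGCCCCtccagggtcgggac

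Several genes through which dendritic cells instruct T cells were higher in Ccr7/Fscn1 cells, and inhibitory ones stood on both sides. Of 18 listed 15 were measured, 8 of them at least 2-fold higher than in Cd209a cells (Cd40, Cd83, Icosl, Cd274, Pdcd1lg2, Tnfrsf4, Tnfrsf9 and Il15ra) and 3 at least 2-fold lower (Havcr2, Lgals9 and Vsir), with a median of 1.29. With the clusters led by other cells left out, 10 were higher and 3 lower (median 1.93). Cd40, the receptor for T cell help, had 169 CPM in Ccr7/Fscn1, 21.5 in Cd209a and 16 in Xcr1/Clec9a cells (2.98, 2.19 to 3.88). Cd83, a maturation marker, had 480, 53.7 and 98.4 CPM (3.16, 2.66 to 3.70). The costimulator Cd86 stayed nearly level, with 160, 144 and 156 CPM (0.15, -0.22 to 0.53).

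The inhibitory ligand gene Cd274, which encodes PD-L1, had 273 CPM in Ccr7/Fscn1, 24.6 in Cd209a and 13.7 in Xcr1/Clec9a cells (3.48, 2.75 to 4.30), and Pdcd1lg2, which encodes PD-L2, had 63.8, 10.7 and 11.4 CPM. Il15ra, which presents interleukin 15 to lymphocytes, had 114 UMIs against 1 in Cd209a cells (108 CPM, 6.14, 3.64 to 11.5), and Il15 itself had 50.4 against 3.07 CPM. The 15 UMIs of Tnfrsf4 in Cd209a cells were all in 1 cell. The checkpoint receptor Havcr2, which encodes TIM-3, was highest in Xcr1/Clec9a cells, with 140 CPM against 47.6 in Cd209a and 20 in Ccr7/Fscn1 cells.

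Of the same 23 chemokines and cytokines 15 were measured here, 6 of them at least 2-fold higher in Ccr7/Fscn1 than in Cd209a cells and 4 lower, with a median of 0.04. Cxcl16, the membrane-bound ligand of Cxcr6, had 1019 against 161 CPM (2.66). Ccl5, which attracts T cells and monocytes, had 6199.7 against 124 CPM (5.64, 5.32 to 5.97), and 3273 CPM in the T cells, which express it. Il12b, a subunit of interleukins 12 and 23, had 72.3 CPM against 0 UMIs, at least 15.7-fold higher, with 44.7% of its UMIs in 1 cell, and Il23a was at 0 UMIs. The 4 lower genes were Ccl4, Ccl6, Ccl9 and Tgfb1, of which Ccl9 turned from a lower to a higher level (log2 ratio 1.61) without the clusters led by other cells.

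Of 12 receptors of migration 6 were measured besides Ccr7, with 3 higher and 2 lower and a median of 1.08. Gpr183, which follows oxysterols, had 286 CPM in Ccr7/Fscn1 and 126 CPM in Cd209a cells, and Cxcr4 had 65.7 and 24.6 CPM. The adenosine receptor Adora2a had 84.7 CPM and 0 UMIs in the other groups, at least 18.4-fold higher than in Cd209a cells. Ccr1, a receptor for inflammatory chemokines, went the other way, with 12.4 against 126 CPM.

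Some class II pathway genes were lower and some class I genes higher in Ccr7/Fscn1 cells. Of 13 class II pathway genes outside the limits 12 were measured, 6 at least 2-fold lower than in Cd209a cells and 1 higher (Lgmn), with a median of -0.96; without the clusters led by other cells 6 were lower and 0 higher. The peptide-loading genes H2-DMa and H2-DMb1 had 390 against 1189 CPM (-1.61, -1.78 to -1.43) and 175 against 758 CPM (-2.11, -2.37 to -1.87). Ciita had 146 against 391 CPM (-1.43, -1.73 to -1.13), and March1, which marks class II molecules for degradation, 20 against 62.9 CPM. The processing genes Ctss (1506 against 1687 CPM) and Ifi30 (2489.8 against 2199 CPM) were close. Xcr1/Clec9a cells were near Cd209a cells for H2-DMa (933 CPM), H2-DMb1 (739 CPM) and Ciita (371 CPM), and of the 12 genes 2 were at least 2-fold lower there (H2-DMb2 and Rfx5). Without the clusters led by other cells their log2 ratios were -2.26 for H2-DMb2 and -0.03 for Rfx5.

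All 20 class I and cross-presentation genes were measured, 6 at least 2-fold higher in Ccr7/Fscn1 than in Cd209a cells (H2-K1, H2-Q7, B2m, Tapbpl, Psme2 and Nlrc5) and 1 lower (Cybb), with a median of 0.84. With the clusters led by other cells left out, 12 were higher (median 1.12). The heavy chain H2-K1 had 3270.2 against 1579 CPM (1.05), its light chain B2m 5295 against 2546 CPM (1.06) and the proteasome activator Psme2 1470.5 against 339 CPM (2.12). Levels in Xcr1/Clec9a cells were between the others: H2-K1 1979, B2m 3278 and Psme2 457 CPM.

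**Figure D5:**
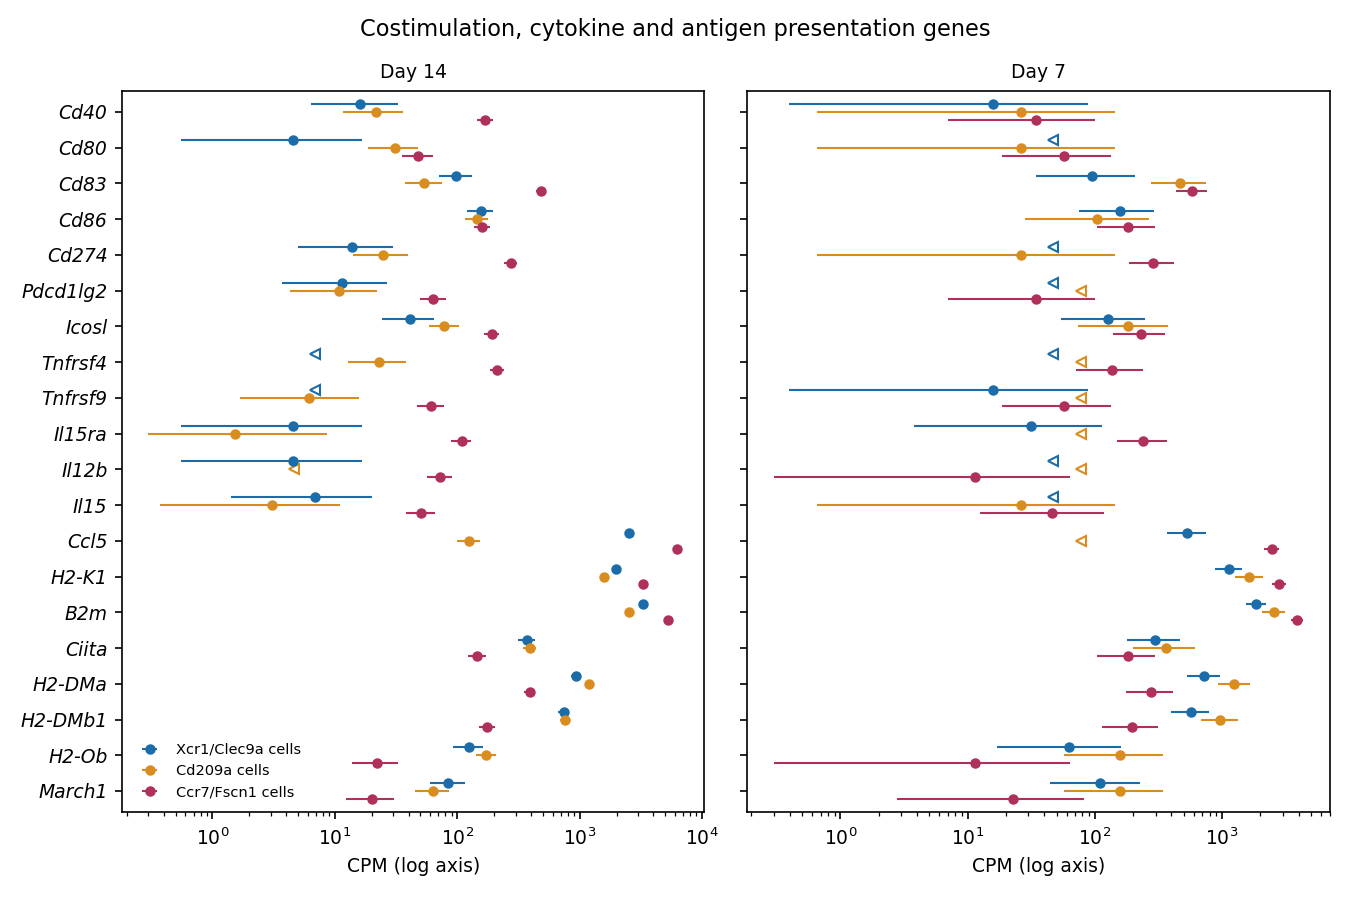
CPM on a log axis of 20 genes of T cell stimulation and antigen presentation in the 3 groups of the split at day 14 and day 7, with 95% Poisson intervals; open triangles mark 0 UMIs at the floor of 3 UMIs. On both days Cd274, H2-K1 and B2m are highest in Ccr7/Fscn1 cells and H2-DMa and H2-DMb1 lowest there, whereas Cd86 is close in all groups.

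Of 19 immediate early and heat shock genes 9 were at least 2-fold lower in Ccr7/Fscn1 than in Cd209a cells at day 14 and 0 higher (median -0.90; 6 and -0.39 without the clusters led by other cells). Fos had 551 CPM in Ccr7/Fscn1 cells, 1450.3 in Cd209a and 1377 in Xcr1/Clec9a cells, and the heat shock gene Hspa1a had 49.5, 368 and 121 CPM.

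Ccr7/Fscn1 cells were also set against Xcr1/Clec9a cells, at day 14 and at day 7, where 23 and 14 cells made the sums small. At day 14, 1007 of 5376 genes (18.7%) were at least 2-fold higher and 626 (11.6%) lower, 30.4% in all (median of all genes 0.06). At day 7 it was 1205 of 5446 (22.1%) and 1376 (25.3%), 47.4% in all, with a median of -0.05; 1 UMI stood for 11.4 CPM in Ccr7/Fscn1 and 15.7 CPM in Xcr1/Clec9a cells. Of the genes of mature dendritic cells, 23 of 24 measured were higher at day 14 (median 3.92) and 21 of 24 at day 7 (3.29), with 0 lower on either day. Of the Xcr1/Clec9a-type genes, 15 of 17 were lower at day 14 (-4.29, 0 higher) and 12 of 16 at day 7 (-2.34, 1 higher, Batf3). Without the clusters led by other cells these medians were 4.55 and 3.26 for the mature genes and -4.27 and -2.23 for the others.

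The genes named next were high in the same group of cells at day 7 and at day 14. At day 7 Relb had 983 CPM in Ccr7/Fscn1, 52.1 in Cd209a and 31.5 CPM in Xcr1/Clec9a cells (4.97, 3.07 to 8.03 against the last), and Traf1 had 1520.5 against 31.5 CPM in Xcr1/Clec9a cells (5.59). Il4i1 had 629 CPM at day 7 and Socs2 434 CPM, each with 0 UMIs in both other groups, at least 13.3-fold and 9.21-fold higher than in Xcr1/Clec9a cells. Samsn1, an adaptor that restrains lymphocyte signalling, had 1258 CPM at day 7 and 0 UMIs in Xcr1/Clec9a cells (at least 26.7-fold). In the opposite direction, Irf8 had 1777 CPM in the Xcr1/Clec9a cells of day 7, Ppt1 1211, Wdfy4 503, Naaa 440 and Snx22 330 CPM. Their levels in the same group at day 14 were 1562, 986, 403, 748 and 199 CPM.

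Of the 18 T cell-directed genes, 11 of 15 measured were higher in Ccr7/Fscn1 than in Xcr1/Clec9a cells at day 14 (median 2.59) and 7 of 14 at day 7 (0.99). Cd274 had 286 CPM in the Ccr7/Fscn1 cells of day 7 and 273 CPM in those of day 14, and Cd83 had 583 and 480 CPM, whereas Cd40 had 34.3 CPM (3 UMIs) at day 7 and 169 CPM at day 14. The class II loading genes were lower in Ccr7/Fscn1 cells on both days: at day 7 H2-DMa had 274 against 724 CPM and H2-DMb1 194 against 566 CPM in Xcr1/Clec9a cells. H2-K1 (2824 against 1133 CPM) and B2m (3909.7 against 1856 CPM) were higher. Whether any of these ratios differed between the days was not tested.

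Other cells' genes stood among the largest ratios of Ccr7/Fscn1 to Xcr1/Clec9a cells at day 14. Among them were genes of oligodendrocytes: Mal had 351 CPM against 6.86 CPM (3 UMIs), and Fez1 had 144 and Gjc3 106 CPM, each against 2.29 CPM (1 UMI). On the lower side were the plasmacytoid genes Siglech (6.66 against 268 CPM), Ly6d (0 UMIs against 174 CPM) and Ccr9 (0 UMIs against 121 CPM), for which 27.4 to 45.3% of UMIs lay in 1 cell. Plasmacytoid markers summed to 1855 CPM in Xcr1/Clec9a, 753 CPM in Ccr7/Fscn1 and 666 CPM in T cells, and 4 of 37 Xcr1/Clec9a cells lay in the plasmacytoid cluster. Their part in the lists' results beyond the values given without these clusters was not tested.

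All dendritic cells of day 14 were then set against those of day 7. The groups of the split were pooled, and their shares were not equal. Xcr1/Clec9a cells were 25.9% at day 7 and 15.04% at day 14, and Cd209a cells 9.26% and 22.8%, with overlapping intervals. The part of this mix in the ratios was not tested. Of 5556 genes measured 368 (6.62%) were at least 2-fold higher at day 14 and 549 (9.88%) lower, with a median log2 ratio of -0.04; scaling by trimmed means (TMM) in place of totals moved every ratio by 0.18 and the counts to 558 and 375. Among the largest ratios were ribosomal RNA-related transcripts and genes of other cells, and also genes such as Mgl2 and Top2a. The transcript Gm42418, which overlaps ribosomal RNA sequence, had 805 CPM at day 14 and 42738 CPM at day 7 (-5.73, -5.80 to -5.66), and 1294 and 40872 CPM in T cells. Lars2 had 24.7 and 1272 CPM. The median mitochondrial share was 0.542% at day 14 and 8.21% at day 7. These values moved with the day in dendritic cells and T cells alike, and their part in the other ratios was not tested.

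On the higher side Hbb-bs, a haemoglobin gene, had 837 against 19.5 CPM with 94.4% of its UMIs in 1 cell, and Igkc had 320 against 7.80 CPM, as in T cells (441 against 9.89 CPM). Spp1, which encodes osteopontin, had 2145 against 97.5 CPM, with a log2 ratio of 4.46 that was 0.62 without the clusters led by other cells. Mgl2 had 92.0 CPM at day 14 and 0 UMIs at day 7, at least 7.86-fold higher by the floor of 3 UMIs, and 0.32 on the log2 scale without those clusters.

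The lists of dendritic cell genes lay near the median of all genes. Of 25 measured genes of mature dendritic cells 2 were at least 2-fold higher at day 14 (Apol7c and Serpinb6b) and 1 lower (Ccl17, whose ratio turned to 0.45 without the clusters led by other cells), with a median of -0.18. It was 0 and 3 of 15 for the Xcr1/Clec9a type (Tlr3, Snx22 and Ifi205; -0.34), 3 and 2 of 17 for the Cd209a type (0.17), 1 and 0 of 11 for class II genes (-0.03), 0 and 1 of 20 for class I genes (0.15) and 1 and 0 of 18 for interferon response genes (0.13). With TMM scaling the class II median turned to 0.15. Without the clusters led by other cells, 8 of the 15 genes of the Xcr1/Clec9a type were lower at day 14 (-1.06) and 4 of the 11 class II genes were higher (0.56). The cells left there included 13 Xcr1/Clec9a cells of 38 at day 7 and 28 of 161 at day 14, and 2 and 23 Cd209a cells. Of 19 immediate early and heat shock genes 9 were at least 2-fold lower and 0 higher (-0.75). Hspa1a had 161 against 1077 CPM and Jun 939 against 1978 CPM, and T cells moved likewise, with 31.1 against 404 CPM and 549 against 1089 CPM. Without the clusters led by other cells (161 and 38 cells) 4 of these genes were lower and 2 higher (-0.10).

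Cell division genes, with 7 of 16 measured, had 4 higher and 0 lower at day 14 (Top2a, Tubb5, Mcm6 and Stmn1; median 1.35). Top2a had 50.1 CPM at day 14 and 1 UMI at day 7 (3.90 CPM; 3.68, 1.18 to 9.0), but its ratio was 0.29 without the clusters led by other cells and -0.42 after thinning to 1000 UMIs. The median of the list was 0.29, with 1 gene higher, without those clusters, and -0.25 where 3 of the 7 genes had to be detected.

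The genes in the study's title were measured in few UMIs per cell. Alkbh5, which removes m6A from RNA, had 49.3 CPM in the dendritic cells of day 14 and 15.6 CPM (4 UMIs) at day 7, a log2 ratio of 1.66 (0.27 to 3.56) that was 0.82, under 2-fold, without the clusters led by other cells. On both days it was lower than in the T cells, which had 79.5 CPM at day 14 and 66.1 CPM at day 7. Within day 14 it had 68.5 CPM in Ccr7/Fscn1, 33.8 in Cd209a and 43.5 in Xcr1/Clec9a cells (1.02, 0.32 to 1.78 for the first against the second). Of 20 m6A and SOCS pathway genes, 14 were measured in that comparison, 5 higher (Alkbh5, Socs1, Stat3, Stat5a and Jak2) and 1 lower (Socs3), with a median of 0.09.

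Socs3, the inhibitor of gp130 cytokine signalling, had 148 CPM at day 7 and 140 CPM at day 14, and 36.8 CPM in the T cells of day 14. Within day 14 it was highest in Cd209a cells, with 221 CPM against 99.9 in Ccr7/Fscn1 (-1.14, -1.52 to -0.77) and 54.9 in Xcr1/Clec9a cells (-2.01). Without the clusters led by other cells the ratios were -0.96 and -3.45. Socs1 had 78 CPM in Ccr7/Fscn1 cells, 4.6 in Cd209a and 20.6 in Xcr1/Clec9a cells (4.08, 2.49 to 6.39 for the first against the second), and Jak2 had 261, 84.4 and 89.2 CPM. The 3 SOCS genes with values here thus had different orders over the groups: Socs1 and Socs2 were highest in Ccr7/Fscn1 cells and Socs3 in Cd209a cells.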

How the data were processed

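Cortical cells were prepared with 10x Genomics 3' version 3 chemistry, per the labels' protocols, and the deposited matrices hold UMI counts per gene and barcode from Cell Ranger 4.0.0, per the file headers. The submitters' processing notes also name STAR, Seurat 3.2.0, GRCm38 and mm10. Dissociation and Percoll selection set which cells were seen. The labels give 5188 to 11934 cells loaded per sample, and the files hold 9895 to 14159 barcodes.

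The limits on UMIs, genes and mitochondrial share, the cells, the gene lists and the comparisons were chosen with earlier results of these data known. Libraries were grouped by their titles. The UMIs of all cells in a group were added up and given as CPM. Ratios of 2 sums have exact conditional binomial intervals, levels have exact Poisson and shares have Clopper-Pearson intervals (95% throughout), which cover counting error only. A gene was measured at a mean of at least 20 CPM over both sides, and a side with 0 UMIs was set at 3 UMIs in every ratio and median. Named genes were the 12 highest and 12 lowest ratios among genes with at least 50 CPM on one side and a UMI in at least 10% of its cells, outside the genes of the limits and mitochondrial and ribosomal protein genes, plus listed genes, by size of ratio and textbook role. A gene named outside this rule was chosen after its values were seen. Some genes that the rule names are not reported here.

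Doublets were called with Scrublet (a fixed score of 0.2 at day 7, where the automatic threshold marked 1 barcode) and kept: 3.56 to 8.89% of barcodes. Clustering used scanpy 1.11.5 (Leiden, resolution 1). Counting and ratios were checked on simulated counts. Tools were Python 3.11.15, numpy 2.4.6, scipy 1.17.1 and pandas 2.3.3. Alternatives changed the limits, depth, scaling, the CPM minimum, doublets and clustering; leaving out clusters led by other cells, more excluded genes in the ratios, the fixed doublet score and both comparisons of Ccr7/Fscn1 with Xcr1/Clec9a cells were chosen after seeing the data.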

Additional observations from a re-analysis of the deposited data

Results flagged for a closer look

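Only genes of the fixed lists that were measured on both days were searched here, so the count says nothing of other genes. In 8 of these listed genes the log2 ratio of Ccr7/Fscn1 to Xcr1/Clec9a cells had opposite signs at day 7 and day 14. Each day's counting interval lay on its own side of 0. The difference between the days was not tested, since each day is 1 library. The share of all measured genes with opposite signs was not counted, so 8 cannot be called many or few. For scale, 47.4% of all measured genes were at least 2-fold apart between these groups at day 7 and 30.4% at day 14. The chemokines Ccl4 and Cxcl9 had ratios of 1.91 and 2.47 at day 7 and -0.81 and -2.27 at day 14. At day 7 Cxcl9 had 38 UMIs against 5, and 89.5% of the 38 came from 1 cell, while at day 14 88.5% of its UMIs in Xcr1/Clec9a cells came from 1 cell. The immediate early genes Fos, Fosb and Atf3 had 1.44, 1.09 and 2.05 at day 7 and -1.32, -0.95 and -0.73 at day 14. For Fos this was 1155 against 425 CPM at day 7 and 551 against 1377 CPM at day 14. The heat shock genes Hspa1a and Hspa1b had 0.98 and 1.71 at day 7 and -1.29 and -1.65 at day 14, while Hsp90aa1 ran the other way, with -0.59 and 0.56. Without the clusters led by other cells, the immediate early and heat shock list at day 7 had 1 gene at least 2-fold higher and 5 lower (median -0.50), in place of 7 and 0 (median 0.71).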

How the results depend on the processing

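No paired analysis was possible because each group has 1 library. Of 1811 gene ratios under an alternative 1338 stayed within their counting interval, 435 moved and 38 turned; of 285 list medians it was 231, 53 and 1, and of 150 shares and counts 101 stayed and 49 moved.

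The share of barcodes at day 14 was 1.60% with class II UMIs of at least 2%, 1.02% with 3 of the 7 genes, 1.78% without Fscn1, 1.34% with more excluded genes, 1.03% thinned and 1.35% without clusters led by other cells. At day 7 it was 0.218% with the class II limit, 0.121% with 3 genes, 0.291% without Fscn1, 0.176% thinned and 0.307% without those clusters, and at day 3 0.0101% with 3 genes, 0.0709% without Fscn1, 0.0657% thinned and 0.0202% without those clusters. The order of days 3, 7 and 14 was the same in each. Ccr7/Fscn1 cells were 37.7% (class II limit), 55.7% (3 genes), 37.6% (no Fscn1) and 55.3% (no such clusters) of the cells at day 14 and 19.4% without Fscn1 at day 7; Cd209a cells at day 14 were 28.8, 10.7 and 14.3% under the class II limit, 3 genes and without the clusters. A Leiden resolution of 0.5 put 48 cells in clusters led by other cells.

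Counts of genes at least 2-fold apart follow the CPM minimum. Ccr7/Fscn1 against Cd209a cells had 437 higher and 299 lower at 50 CPM, 2554 and 4144 with no minimum, and 997 lower with 3 genes. Xcr1/Clec9a against Cd209a cells had 133 and 172 at 50 CPM, 3196 and 2522 with no minimum, 613 and 889 with 3 genes, and 754 (mean of cells), 530 (more excluded genes) and 526 (no such clusters) higher. Day 14 against day 7 had 118 and 215 at 50 CPM, 1145 and 8279 with no minimum, 767 and 922 with 3 genes, 773 and 1426 thinned, 664 and 1114 without the clusters, and 558 higher with TMM.

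Ratios that turned without clusters led by other cells were Ccl9 (1.61), Clec4a2 (0.36) and Clec4n (0.87) for Ccr7/Fscn1 against Cd209a cells, Ccl3 (0.065), Ccl5 (-3.70), Clec4a2 (0.23), Lyz2 (0.65), Mrc1 (0.23), Rsad2 (1.82) and Tnf (0.65) for Xcr1/Clec9a against Cd209a cells, and Ccl17 (0.45), Ccr9 (-3.55), Clec4n (-0.82), Fcgr4 (-1.68), Lyz2 (-0.68), Nr4a1 (0.53) and Ptger4 (0.48) for day 14 against day 7. With 3 of the 7 genes Clec4n turned to 0.063 in the first, Ccl5 to -4.53 and Csf2rb2 to -0.59 in the second, and Ccl3 to 1.35, Ccr9 to -0.52, Clec4n to -1.71, Cx3cr1 to 1.66, Cxcl2 to 0.56, Fcgr4 to -0.57, Mcm6 to -0.25, Nr4a1 to 0.66, Ptger4 to 0.87 and the median of the cell division list to -0.25 in the last. With more excluded genes Ccl5 turned to -0.45 and Rab43 to -0.38, and without doublets Ccl5 to -1.46, for Xcr1/Clec9a against Cd209a cells. Thinning turned Ccr9 (-0.16), Fcgr4 (-1.42), Mcm6 (-1.16), Syt11 (-0.043), Top2a (-0.42) and Usp18 (-0.043) for day 14 against day 7. The cause was not tested. Depth limits the early days most: 1 UMI over all dendritic cells stood for 187 CPM at day 1, 14.5 at day 3, 3.90 at day 7 and 0.374 at day 14, and within day 7 for 26.1 CPM in Cd209a, 15.7 in Xcr1/Clec9a and 11.4 in Ccr7/Fscn1 cells.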

Other observations

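Ligands of the receptors on these cells were measured in the T cells of the same libraries. Xcl1, the ligand of Xcr1, had 93.3 CPM in the T cells of day 14, with a UMI in 281 of 1735 cells, and 116 CPM in those of day 7, with a UMI in 68 of 293. Flt3l, the ligand of Flt3, had 38.9 CPM at day 14 and 45.3 CPM at day 7, and Csf2, which encodes the growth factor GM-CSF, had 10.5 and 1.04 CPM (2 UMIs at day 7). Of the ligands of Ccr7, Ccl19 had 15 UMIs and Ccl21a had 0 UMIs over all 11946 barcodes of day 14.

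Of 12 receptors of migration 7 were measured for Xcr1/Clec9a against Cd209a cells at day 14, 2 at least 2-fold higher and 2 lower. The chemokine receptor Cxcr3 had 48 CPM in Xcr1/Clec9a, 7.67 in Cd209a and 0.952 CPM (1 UMI) in Ccr7/Fscn1 cells, and Ly75, of the list of uptake receptors, which encodes DEC-205, had 25.2, 1.53 (1 UMI) and 50.4 CPM. Of 20 interferon response genes 18 were measured, and 4 were at least 2-fold higher in Xcr1/Clec9a than in Cd209a cells (Irf7, Stat2, Usp18 and Ifi44) and 4 lower (Ifit1, Ifit3, Oasl2 and Rsad2), with a median of 0.50. Rsad2 turned without the clusters led by other cells.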
